A study of Mus musculus with 8 samples.

Results

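The 35 genes described here mark excitatory (glutamatergic) neurons of the cerebral cortex and the layers in which those neurons lie. They were taken by symbol from the deposited count table, in which all 35 of them were found once each among 54532 genes. They fall into 7 genes of excitatory neurons in all layers, 14 genes of the upper layers and layer 4, and 14 genes of the deep layers. Libraries came from the medial prefrontal cortex (mPFC) of adult male C57BL/6 mice that had been trained in conditioned place preference (CPP) with methamphetamine, a psychostimulant. Of 8 libraries, 4 belonged to the retrieval group and 4 to the non-retrieval group, and each was made from tissue pooled over 2 to 3 mice and taken 1 h after the CPP test. The labels do not say what the non-retrieval mice underwent, and no genotype, transgene or other treatment is given for either group. The values are raw read counts scaled to a common library size (CPM). Retrieval library 2 stood apart in the mean of 12 markers of striatal projection neurons, at 4.42 log2 CPM against 3.28 to 3.54 in the other 7. Tac1 alone of the 12 was not highest in that library (16.4 CPM, against 17.6 CPM in non-retrieval library 3). The summed level of the 12 was 257 to 306 CPM in non-retrieval and 265 to 459.5 CPM in retrieval, and none was at 0. Drd2, a low marker, was above the non-retrieval range (1.21 to 1.58 CPM) in all 4 retrieval libraries (1.88 to 7.45 CPM).

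Cortical excitatory neurons release glutamate, which vesicular transporters such as the product of Slc17a7 load into synaptic vesicles, and their identity is set by transcription factors of the Emx, Neurod, Tbr, Cux, Fez and POU families. Neurons of the upper layers connect cortical areas with each other, neurons of layer 5 project to the striatum, brainstem and spinal cord, and neurons of layer 6 project to the thalamus. The mPFC of the mouse has a thin or absent granular layer 4 and is a main source of cortical input to the striatum in drug-seeking behaviour.

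None of the 35 markers passed the test between retrieval and non-retrieval in edgeR, against 4.57% of all 16745 genes tested (3.67% higher and 0.902% lower in retrieval). The smallest adjusted p among them was 0.0988, of Otof. At an unadjusted p under 0.05 there were 11 of the 35, against 18.5% of all genes tested. The retrieval group had the higher level for 6 of these (Otof, Cux2, Mdga1, Whrn, Fezf2 and Cplx3) and the lower for 5 (Nrgn, Emx1, Lmo4, Rprm and Pcp4), against 11.2% and 7.27% of all genes. DESeq2 called none of the 35 (6.3% of all genes) and limma-voom called 3 (9.67% of all genes), Cux2, Otof and Whrn, all higher. At an adjusted p under 0.10 edgeR called Otof alone, against 7.01% of all genes. With the replicate number as a block, edgeR called 9 of the 35, 5 higher and 4 lower, and 1791 of the 16745 genes. The labels do not say that libraries of the same number are pairs, so the main fit has no block. Over all tested genes, though, the deviations of each library from its group mean correlated best with those of its own number in the other group. For none of the 35 did the 4 libraries of one group lie wholly above or below those of the other, which was the case for 11.1% of all genes (6.59% above and 4.53% below). The median log2 fold change, retrieval over non-retrieval, was 0.09 for the upper-layer genes, 0.01 for the deep-layer genes and -0.05 for the genes of all layers, beside -0.009 for all genes tested. In the upper-layer class 9 genes had a positive and 5 a negative log2 fold change, and the deep-layer class was divided in the same way, while 47.8% of all genes had a positive one. A missed threshold does not show that levels were equal, and in tissue of mixed cells, fewer cells of a type and less RNA per cell cannot be told apart. The 95% interval of the log2 fold change lay within 0.5 of 0 for 30 of the 35 genes and within 0.3 of 0 for 17.

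**Figure D1:**
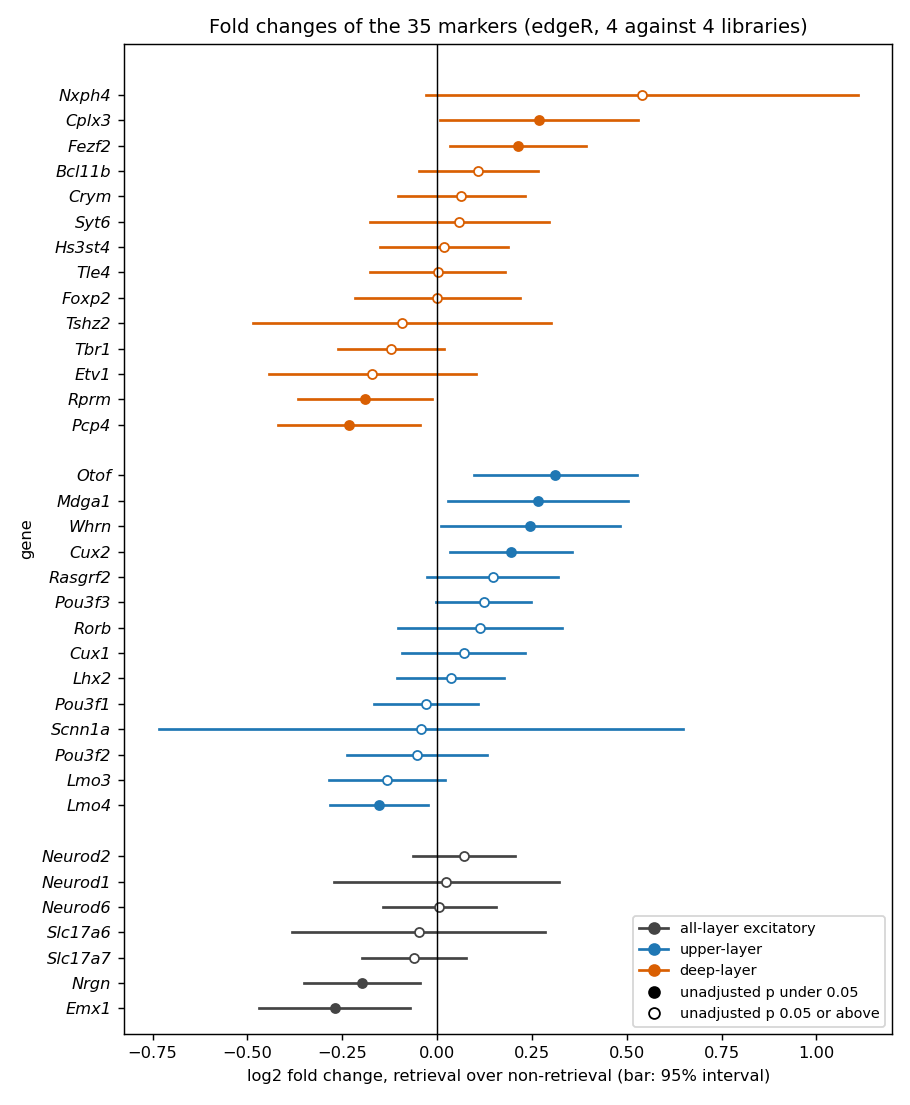
Log2 fold change of each of the 35 markers with its 95% interval (horizontal axis, retrieval over non-retrieval), sorted within 3 classes (vertical axis: gene), filled where the unadjusted p was under 0.05. The 11 filled points lie on both sides of 0, and no gene passed after adjustment over all 16745 genes.

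All 35 genes passed the filter on low counts, so no marker is missing from these counts. Per length, in CPM divided by gene length in kilobases (RPKM), the genes of all layers spanned the widest range. Nrgn, which encodes the postsynaptic calmodulin-binding protein neurogranin, had the highest mean level at 973 RPKM, and Slc17a7, the vesicular glutamate transporter VGLUT1, followed at 378 RPKM. Slc17a6, the transporter VGLUT2 that predominates in thalamus, stood at 2.09 RPKM. Among upper-layer genes Lmo4, a LIM-domain cofactor also found in other layers, led with 97.1 RPKM. Among deep-layer genes Rprm, a marker of layer 6, led with 66.3 RPKM, followed by the T-box factor gene Tbr1 with 42.2 RPKM. Markers of layer 4 were low, with 2.10 RPKM for the nuclear receptor gene Rorb and 0.290 RPKM for the sodium channel gene Scnn1a, the lowest of the 35. Low levels were not particular to layer 4. Mdga1 of the upper layers, at 1.54 RPKM, and Foxp2 and Tshz2 of the deep layers, at 1.15 and 1.13 RPKM, stood below Rorb. Scnn1a had 15 to 49 counts per library, the fewest of the 35, while Slc17a7 had 51290 to 63527. The labelled tissue thus carried its defining cortical markers. Of 6 thalamic markers, Gbx2 and Lhx9 were too low to be tested, with Gbx2 at 0 in at least 1 library. The other 4 were detected in every library and did not pass, with 49.1 to 73.7 CPM for Rora, 5.27 to 6.93 CPM for Prkcd, 2.86 to 4.37 CPM for Tcf7l2 and 8.502 to 15.4 CPM for Slc17a6.

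In the build GRCm38, Otof (ENSMUSG00000062372) lies on chromosome 5 from 30367062 to 30461932, Cux2 (ENSMUSG00000042589) on chromosome 5 from 121856366 to 122050102, and Fezf2 (ENSMUSG00000021743) on chromosome 14 from 12342094 to 12348189. Emx1 (ENSMUSG00000033726) lies on chromosome 6 from 85187438 to 85204462, Nrgn (ENSMUSG00000053310) on chromosome 9 from 37544492 to 37552904, and Pcp4 (ENSMUSG00000090223) on chromosome 16 from 96467606 to 96525793, as the deposited table gives them.

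Windows before a RefSeq start are shown for 4 genes. These are Nrgn as the marker with the highest level, Neurod2 as a transcription factor of all layers, and Cux2 and Fezf2 as defining factors of the upper and the deep layers. Each is the 250 bases before a RefSeq start in GRCm38.p6, 5′ to 3′ on the gene's own strand. The windows are chr9:37552746-37552995 for Nrgn, chr11:98329646-98329895 for Neurod2, chr5:122047826-122048075 for the inner of the pair of Cux2 starts, and chr14:12345866-12346115 for Fezf2, all on the minus strand. By the deposited coordinates, the Cux2 and Fezf2 windows lie inside the gene. That of Nrgn does so in part, and that of Neurod2 only with its last few bases. Capitals mark CAGATG or its reverse complement, an E-box that Neurod factors can bind.
Nrgn: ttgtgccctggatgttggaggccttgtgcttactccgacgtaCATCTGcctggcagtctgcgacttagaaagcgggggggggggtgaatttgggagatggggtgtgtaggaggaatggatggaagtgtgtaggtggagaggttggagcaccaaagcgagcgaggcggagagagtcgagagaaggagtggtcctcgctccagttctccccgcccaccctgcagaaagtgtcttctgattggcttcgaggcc
Neurod2: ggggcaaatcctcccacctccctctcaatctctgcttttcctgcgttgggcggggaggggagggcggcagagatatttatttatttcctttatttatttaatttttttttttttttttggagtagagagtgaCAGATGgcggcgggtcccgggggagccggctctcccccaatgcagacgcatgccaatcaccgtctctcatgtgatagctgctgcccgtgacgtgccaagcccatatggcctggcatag
Cux2: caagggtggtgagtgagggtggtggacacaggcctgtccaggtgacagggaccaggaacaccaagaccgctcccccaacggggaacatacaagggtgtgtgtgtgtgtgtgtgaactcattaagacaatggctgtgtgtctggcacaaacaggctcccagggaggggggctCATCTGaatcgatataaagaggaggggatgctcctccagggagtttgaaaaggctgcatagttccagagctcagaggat
Fezf2: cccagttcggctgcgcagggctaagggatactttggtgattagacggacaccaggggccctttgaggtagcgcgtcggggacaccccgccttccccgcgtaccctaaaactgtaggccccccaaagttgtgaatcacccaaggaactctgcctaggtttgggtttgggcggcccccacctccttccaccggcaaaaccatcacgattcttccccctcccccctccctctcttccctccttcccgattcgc
Counted from the start, the E-box began at -208 in Nrgn, at -118 in Neurod2 and at -79 in Cux2, and the Fezf2 window held none. The 250 bases before the outer Cux2 start, not shown, held none either. Of the 35 genes, 29 matched the RefSeq promoter table, with 39 windows. On either strand of the full windows, which also take in the first bases of the transcript, CAGATG was found in 15.4% of the members' windows and in 12.3% of the 15283 windows of tested genes. The CRE TGACGTCA occurred in 0 of the 39 windows (2.85% of windows of tested genes). The AP-1 motif TGAGTCA occurred in 1, of Syt6 (3.81%), and the EGR motif GCGTGGGCG in 1, of Neurod1 (1.13%). These matches describe letters only.

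Among the genes of all layers, Slc17a7 stood at 1884, 2197, 2107 and 2137 CPM in non-retrieval libraries 1 to 4 and 1845, 2132, 1964 and 2038 CPM in retrieval libraries 1 to 4. The groups overlapped, and the lowest value was in retrieval library 1 and the highest in non-retrieval library 2 (log2 fold change -0.06 with SE 0.06, adjusted p = 0.662 in edgeR, 95% interval -0.20 to 0.08). Nrgn stood at 1369, 1549.8, 1619.9 and 1501 CPM in non-retrieval libraries 1 to 4 and 1192, 1258, 1474 and 1342 CPM in retrieval libraries 1 to 4. Retrieval library 3 lay within the non-retrieval range and the other 3 retrieval libraries below it (log2 fold change -0.20 with SE 0.07, adjusted p = 0.143 in edgeR, unadjusted p = 0.0140). Emx1, a homeobox gene of the cortical excitatory lineage, had the smallest p of this class. Its values were 20.3, 24.3, 22.8 and 26.2 CPM in non-retrieval libraries 1 to 4 and 16.8, 20.6, 20.3 and 20.0 CPM in retrieval libraries 1 to 4, with retrieval library 2 just above the lowest non-retrieval value and the other 3 below it (log2 fold change -0.27 with SE 0.09, adjusted p = 0.128 in edgeR, unadjusted p = 0.0111). Emx1 was lower with the offset for gene length and GC content described below (log2 fold change -0.30, edgeR adjusted p = 0.0133), the only one of the 35 to pass there, against 7.98% of all genes. Neurod2, a basic helix-loop-helix factor of cortical projection neurons, stood at 111, 126, 116 and 116 CPM in non-retrieval libraries 1 to 4 and 116, 131, 127 and 119 CPM in retrieval libraries 1 to 4, with no separation of the groups (log2 fold change 0.07 with SE 0.06, adjusted p = 0.595 in edgeR). The related Neurod6 averaged 89.3 ± 1.40 CPM in the non-retrieval group against 89.6 ± 9.35 CPM in the retrieval group (SD, n = 4 each), a log2 fold change of 0.0063. Neurod1 averaged 6.28 ± 1.03 CPM in the non-retrieval group against 6.40 ± 1.02 CPM in the retrieval group (SD, n = 4 each), a log2 fold change of 0.024. The gene model of Cerkl overlaps that of Neurod1 and held 10.5% as many reads, so the count of Neurod1 is less certain than the others. Slc17a6 had a log2 fold change of -0.048 and its extremes, 8.502 and 15.4 CPM, both lay in the retrieval group.

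**Figure D2:**
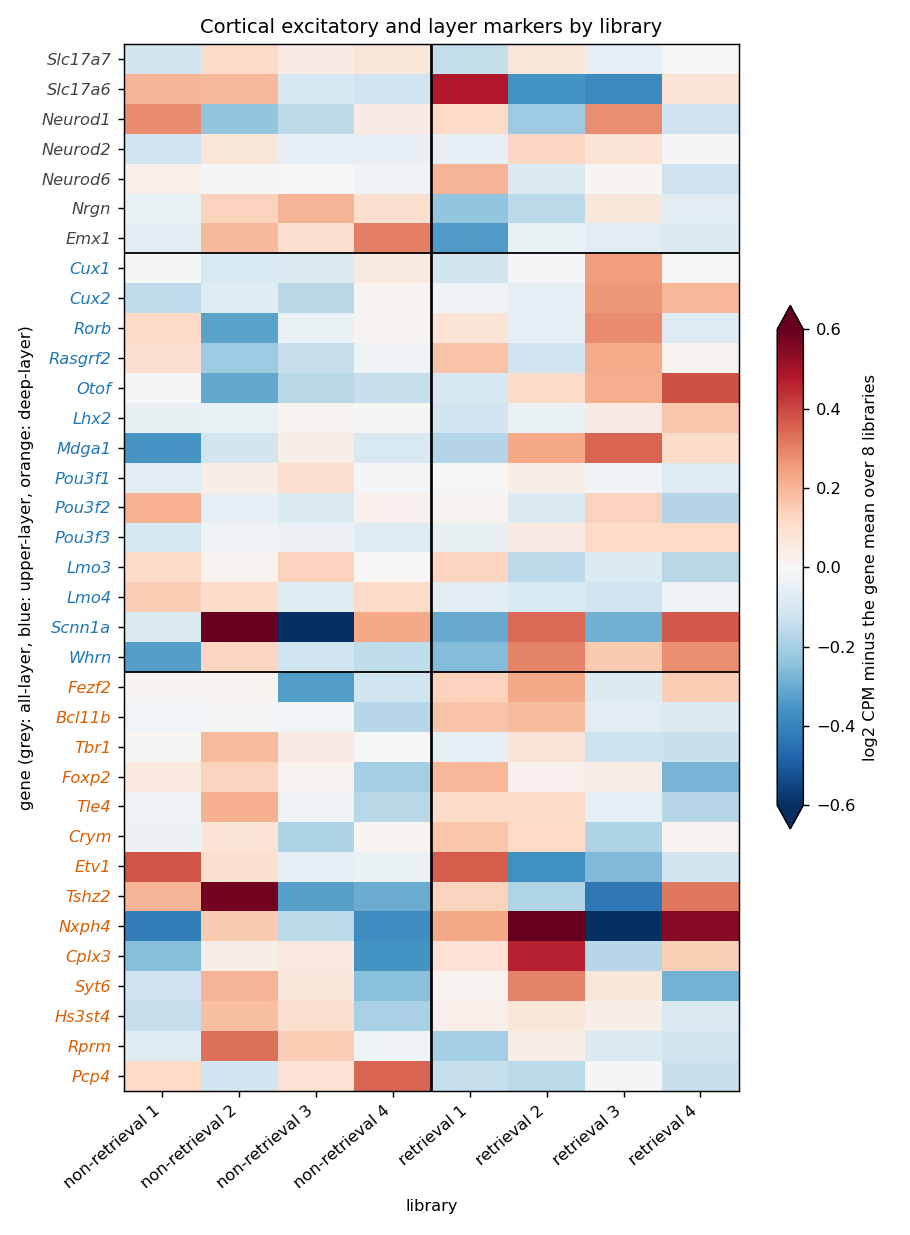
Level of each of the 35 markers (vertical axis, grouped by class) in each of the 8 libraries (horizontal axis), as log2 CPM minus the gene's mean over all libraries, with colours capped at 0.6 either way. The deep-layer rows differ within the retrieval group, with a class mean of 5.65 log2 CPM in library 2 and 5.37 in library 3.

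In the upper-layer class Otof, a calcium-sensing ferlin expressed in cortical layers 2 and 3, had the smallest p of all 35. It stood at 18.7, 15.2, 16.7 and 17.1 CPM in non-retrieval libraries 1 to 4 and 17.6, 20.2, 21.8 and 24.4 CPM in retrieval libraries 1 to 4. Retrieval library 1 lay within the non-retrieval range and the other 3 retrieval libraries above it (log2 fold change 0.31 with SE 0.10, adjusted p = 0.0988 in edgeR, unadjusted p = 0.00682). Cux2, the homeobox factor that defines layers 2 to 4, stood at 96.2, 102, 95.6 and 108 CPM in non-retrieval libraries 1 to 4 and 105, 103, 128 and 123 CPM in retrieval libraries 1 to 4. Retrieval libraries 3 and 4 were above every non-retrieval library and the other 2 were within their range (log2 fold change 0.19 with SE 0.08, adjusted p = 0.177 in edgeR). Lmo4, by contrast, was lower in the mean, at 361 ± 24.2 CPM in the non-retrieval group against 325 ± 8.85 CPM in the retrieval group (SD, n = 4 each). Its values were 379, 369.6, 325 and 370.4 CPM in non-retrieval libraries 1 to 4 and 327, 321, 315 and 336 CPM in retrieval libraries 1 to 4, and non-retrieval library 3 lay among the retrieval libraries (log2 fold change -0.15 with SE 0.06, adjusted p = 0.186 in edgeR). Rorb stood at 25.04, 18.5, 22.5 and 23.4 CPM in non-retrieval libraries 1 to 4 and 24.5, 22.3, 28.2 and 21.9 CPM in retrieval libraries 1 to 4. The lowest and highest of these were non-retrieval library 2 and retrieval library 3, and the groups overlapped (log2 fold change 0.11 with SE 0.10, adjusted p = 0.597 in edgeR, 95% interval -0.10 to 0.33).

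Among the remaining upper-layer genes, Mdga1, a cell-adhesion protein of superficial neurons, and Whrn, the scaffold protein whirlin, had unadjusted p values of 0.0308 and 0.0424. Mdga1 averaged 13.1 ± 1.43 CPM in the non-retrieval group against 15.8 ± 2.36 CPM in the retrieval group (SD, n = 4 each), with a log2 fold change of 0.27. Whrn averaged 44.6 ± 5.97 CPM in the non-retrieval group against 52.8 ± 8.78 CPM in the retrieval group (SD, n = 4 each), with a log2 fold change of 0.25. For both genes retrieval library 1 was the lowest of its group, at 12.7 and 40.2 CPM, and without it both passed (edgeR adjusted p = 0.0315 for Mdga1 and 0.0153 for Whrn). The fit without that library called 1360 genes, against 766 with every library. With the mean of the myelin markers as a covariate, the log2 fold change of Whrn was -0.077 (edgeR adjusted p = 0.830), a change of sign, and that of Mdga1 was 0.20. That mean was higher in every retrieval library than in any non-retrieval library, so the covariate and the group cannot be cleanly told apart. Otof passed without the same library as well (log2 fold change 0.40, edgeR adjusted p = 0.0135). Rasgrf2, an exchange factor for Ras found in layers 2 and 3, ranged over 130.1 to 177 CPM with a log2 fold change of 0.15. The POU factor gene Pou3f3 ranged over 146 to 170.4 CPM with a log2 fold change of 0.12, and its highest values were those of retrieval libraries 3 and 4. The other POU factor genes, Pou3f1 (42.2 to 47.6 CPM) and Pou3f2 (25.5 to 33.2 CPM), had log2 fold changes of -0.029 and -0.052. Those of the LIM factor genes Lhx2 (69.8 to 84.7 CPM) and Lmo3 (71.0 to 87.6 CPM) were 0.036 and -0.13, and that of Cux1 (49.3 to 63.3 CPM), the relative of Cux2, was 0.07. Scnn1a had the widest interval of the class, -0.73 to 0.65, at a mean of 1.22 CPM in non-retrieval.

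**Figure D3:**
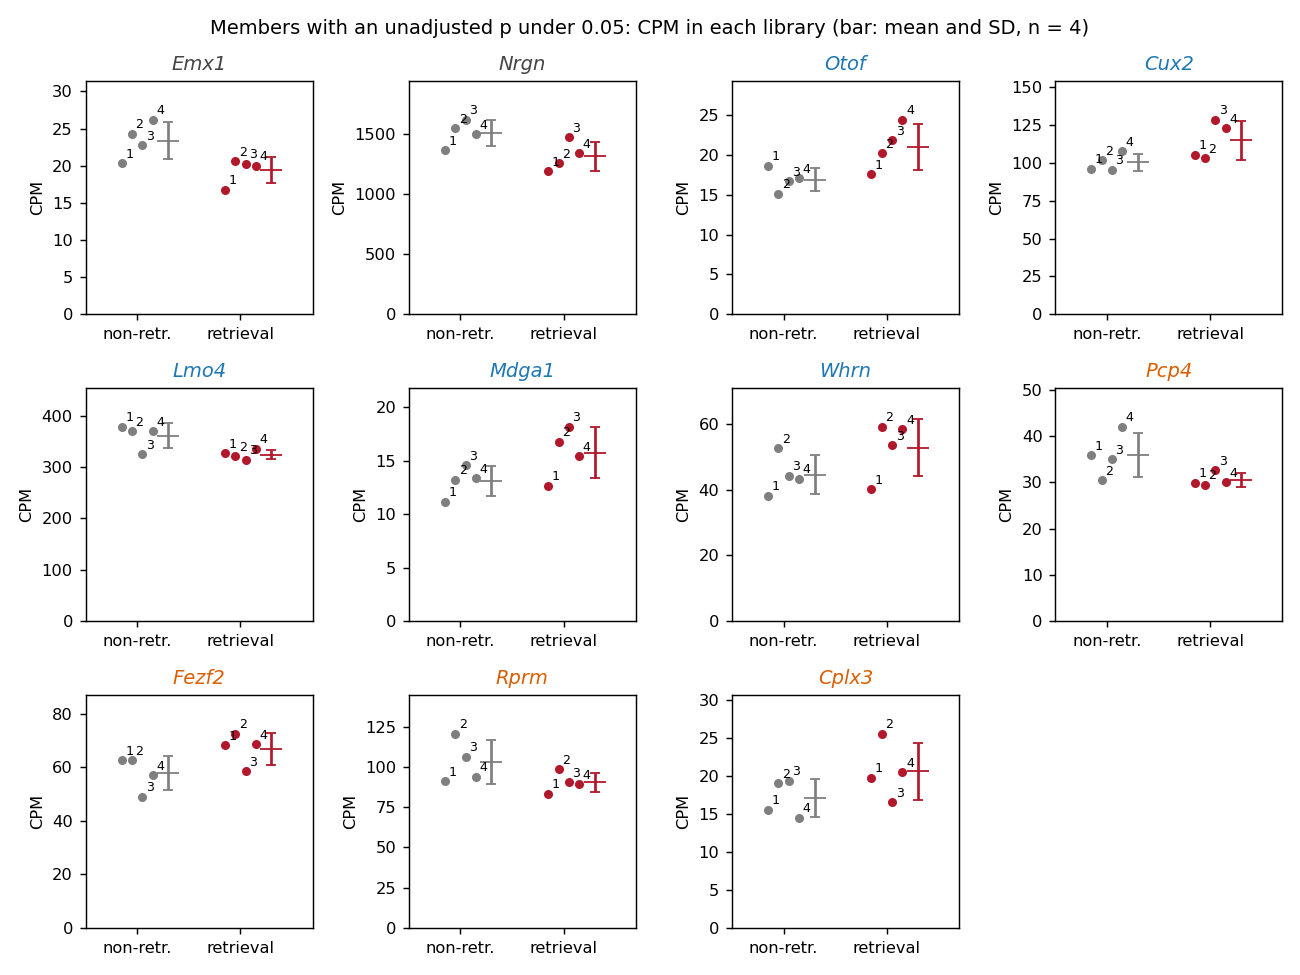
CPM of the 11 markers with an unadjusted p under 0.05 (vertical axes from 0) in each library, numbered by replicate, for both groups, with the mean and SD (n = 4) as bars. In every panel at least 1 library of one group lies within the range of the other.

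In the deep-layer class Fezf2, the zinc-finger factor that specifies subcerebral projection neurons of layer 5, stood at 62.5, 62.6, 49.0 and 57.0 CPM in non-retrieval libraries 1 to 4 and 68.1, 72.5, 58.4 and 68.6 CPM in retrieval libraries 1 to 4. Retrieval library 3 lay within the non-retrieval range and the other 3 above it (log2 fold change 0.21 with SE 0.08, adjusted p = 0.182 in edgeR). Bcl11b, which encodes CTIP2 and acts downstream of Fezf2, stood at 96.5, 97.0, 96.3 and 86.6 CPM in non-retrieval libraries 1 to 4 and 109.8, 111, 92.9 and 92.1 CPM in retrieval libraries 1 to 4. Retrieval libraries 1 and 2 were above and the other 2 within the non-retrieval range (log2 fold change 0.11 with SE 0.07, adjusted p = 0.465 in edgeR). Pcp4, a calmodulin-binding protein found in layer 5, went the other way in its mean, with 35.8, 30.5, 34.999 and 42.0 CPM in non-retrieval libraries 1 to 4 and 29.9, 29.5, 32.7 and 30.1 CPM in retrieval libraries 1 to 4. Non-retrieval library 2 overlapped the retrieval group (log2 fold change -0.23 with SE 0.09, adjusted p = 0.164 in edgeR, the smallest p of this class at 0.0184 unadjusted). Etv1, an ETS factor of layer 5, ranged from 65.8 to 109 CPM within the retrieval group alone, and the highest value of its group was in library 1 both in retrieval and in non-retrieval (110.3 CPM). Without retrieval library 1 Etv1 was lower in retrieval (log2 fold change -0.34, edgeR adjusted p = 0.0291), in a fit that called 1360 genes. Without non-retrieval library 1 its log2 fold change was -0.065, and with the myelin covariate 0.089, neither passing.

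Of the layer 6 genes, Tbr1 stood at 232, 264, 239 and 231 CPM in non-retrieval libraries 1 to 4 and 222, 244, 211 and 211 CPM in retrieval libraries 1 to 4. The 2 lowest values were those of retrieval libraries 3 and 4 (log2 fold change -0.12 with SE 0.07, adjusted p = 0.350 in edgeR). Foxp2, a forkhead factor of corticothalamic neurons that striatal neurons also express, stood at 19.5, 20.6, 19.0 and 16.3 CPM in non-retrieval libraries 1 to 4 and 21.5, 19.1, 19.3 and 15.5 CPM in retrieval libraries 1 to 4, with a log2 fold change of 0.00088 (95% interval -0.22 to 0.22). Rprm, a p53-induced gene, stood at 91.3, 121, 106 and 94.0 CPM in non-retrieval libraries 1 to 4 and 83.4, 98.4, 90.4 and 89.1 CPM in retrieval libraries 1 to 4. All retrieval values lay within or below the non-retrieval range (log2 fold change -0.19 with SE 0.08, adjusted p = 0.232 in edgeR). The co-repressor gene Tle4 ranged over 74.5 to 97.4 CPM (log2 fold change 0.0015), the synaptotagmin gene Syt6 over 30.5 to 45.6 CPM (0.059) and the heparan sulfotransferase gene Hs3st4 over 75.8 to 98.2 CPM (0.018). For all 3 the highest value was in library 2 of a group, non-retrieval for Tle4 and Hs3st4 and retrieval for Syt6. Crym, a thyroid hormone binding protein of layers 5 and 6, ranged over 94.9 to 121 CPM (0.064), and the zinc-finger gene Tshz2 over 6.36 to 12.8 CPM (-0.093). The groups overlapped for each of these 5 genes.

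Over all 8 libraries the coefficient of variation of the 35 genes had a median of 10.9%. It was lowest for Pou3f1, at 3.97%, and highest for Nxph4, at 42.6%, whose highest library held 3.79 times the CPM of its lowest. For 8 of the 35 genes both the highest and the lowest of the 8 values lay in the retrieval group.

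Nxph4 and Cplx3, markers of the deepest neurons next to the white matter, had the largest positive log2 fold changes of the class. Nxph4, a secreted neurexin ligand, stood at 3.17, 4.71, 3.78 and 3.26 CPM in non-retrieval libraries 1 to 4 and 4.95, 8.27, 2.18 and 6.16 CPM in retrieval libraries 1 to 4. Retrieval libraries 2, 4 and 1 were the 3 highest of all 8 and retrieval library 3 the lowest (log2 fold change 0.54 with SE 0.27, adjusted p = 0.298 in edgeR). Cplx3, a complexin that regulates vesicle release, stood at 15.6, 19.1, 19.4 and 14.5 CPM in non-retrieval libraries 1 to 4 and 19.8, 25.6, 16.5 and 20.53 CPM in retrieval libraries 1 to 4. The highest value was again that of retrieval library 2 and the groups overlapped (log2 fold change 0.27 with SE 0.12, adjusted p = 0.258 in edgeR). Nxph4 passed without retrieval library 3 (log2 fold change 0.80, edgeR adjusted p = 0.0312), in a fit that called 420 genes. Retrieval libraries 2 and 4 were also the 2 with the most myelin transcript, with mean log2 CPM over 10 myelin markers of 7.96 and 7.86, against 7.23 to 7.51 in the other 6. The summed level of the 10 was 3398 to 4008 CPM in non-retrieval and 4121 to 5980 CPM in retrieval, and none was at 0. With the myelin mean as a covariate the log2 fold change of Nxph4 was -0.53 and that of Cplx3 -0.12, so that both changed sign. The myelin mean did not overlap between the groups (7.232 to 7.456 in non-retrieval, 7.459 to 7.959 in retrieval). Its part and that of the group therefore cannot be cleanly told apart in this fit.

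Each library can also be described by the mean level of a class. The mean log2 CPM of the 14 deep-layer genes ran from 5.40 to 5.67 in non-retrieval and from 5.37 to 5.65 in retrieval, with group means of 5.51 ± 0.11 and 5.53 ± 0.13 (SD, n = 4). That of the 14 upper-layer genes ran from 5.44 to 5.52 in non-retrieval and from 5.48 to 5.64 in retrieval, with group means of 5.49 ± 0.037 and 5.57 ± 0.070 (SD, n = 4). The deep-layer group means differed by less than either SD, and the upper-layer means by more than either SD, though the groups overlapped in both classes. The mean of the 7 genes of all layers did not overlap. It ran from 6.52 to 6.58 in non-retrieval and, below that, from 6.42 to 6.51 in retrieval. Its group means were 6.55 ± 0.026 and 6.48 ± 0.042 (SD, n = 4), and this difference was not tested. Taken singly, each of the 7 genes overlapped, and 3 had a positive and 4 a negative log2 fold change. Of all single genes tested, 11.1% did not overlap. The mean of the 7 other excitatory genes described below did overlap, at 8.85 to 8.94 in non-retrieval and 8.87 to 8.89 in retrieval. Upper minus deep was -0.005, -0.16, -0.044 and 0.13 in non-retrieval libraries 1 to 4 and -0.13, -0.094, 0.28 and 0.099 in retrieval libraries 1 to 4. Retrieval library 3, with the highest difference, held the maximum of 6 of the 14 upper-layer genes and of none of the deep-layer genes. Non-retrieval library 2, with the lowest difference, held the maximum of 5 of the 14 deep-layer genes, as did retrieval library 2. The group means of upper minus deep were -0.020 ± 0.12 and 0.038 ± 0.19 (SD, n = 4), a difference smaller than either SD. No test of the classes against each other was made, as the members were chosen with results known.

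**Figure D4:**
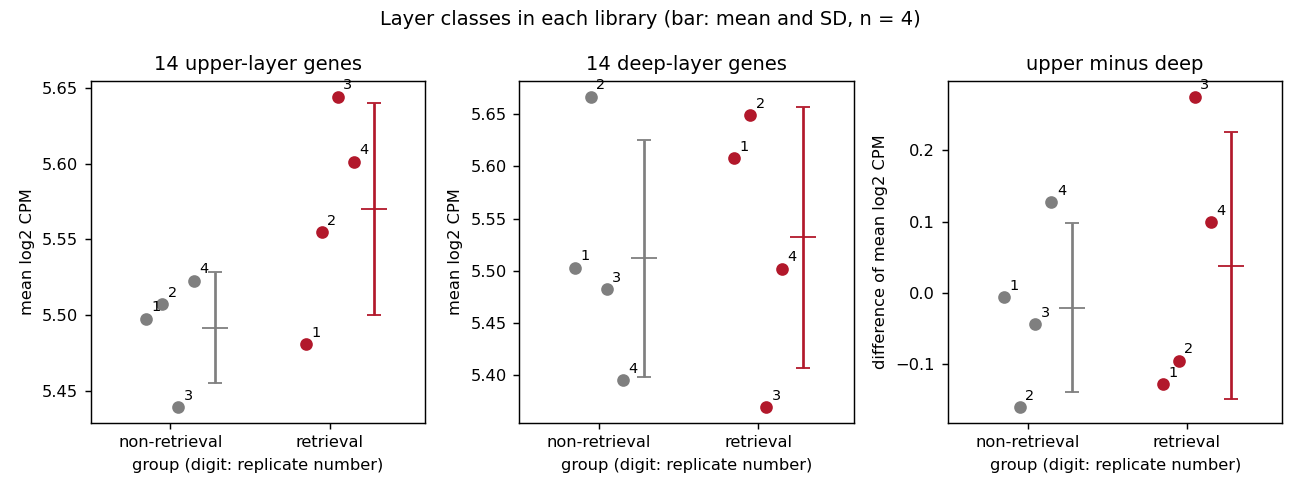
Mean log2 CPM of the upper-layer class, of the deep-layer class, and their difference (vertical axes, which do not start at 0) in each library, numbered by replicate, with the group mean and SD (n = 4). The 2 groups overlap in each panel, and the spread of upper minus deep runs from -0.16 to 0.28.

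Across all tested genes, the fold changes moved with gene model length. In the shortest of 5 equal groups of tested genes, up to 2060.8 bases, the median log2 fold change was -0.048, and in the longest, above 7137 bases, it was 0.053. An unadjusted p under 0.05 with a higher level in retrieval was reached by 4.90% of genes in the shortest group and by 22.4% in the longest, and with a lower level by 8.06% and 4.15%. The markers showed no steady order, with medians of -0.19, 0.02, -0.01, -0.06 and 0.12 from the shortest to the longest group, over 4, 7, 6, 6 and 12 genes. The upper-layer genes had a median length of 7373 bases, against 4015.5 for the deep-layer genes and 4032 for all tested genes. The 4 upper-layer genes with a higher level at an unadjusted p under 0.05, Otof, Cux2, Mdga1 and Whrn, lay in the longest group. Cux1, Rorb, Rasgrf2 and Pou3f3 of the same class also lay there and did not reach that p. Of the 5 markers lower at that p, Nrgn, Rprm and Pcp4 lay in the shortest group, with 1453, 1460 and 1026 bases. With a per-library offset for length and GC content, the upper-layer median was 0.024 and 7 of the 14 genes were positive, while the deep-layer median was 0.008. Under it Otof stood at 0.21, Cux2 at 0.075, Mdga1 at 0.14 and Whrn at 0.12, each less than without the offset. Nrgn (-0.19), Rprm (-0.17), Pcp4 (-0.20) and Fezf2 (0.21) moved less than any of those 4.

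**Figure D5:**
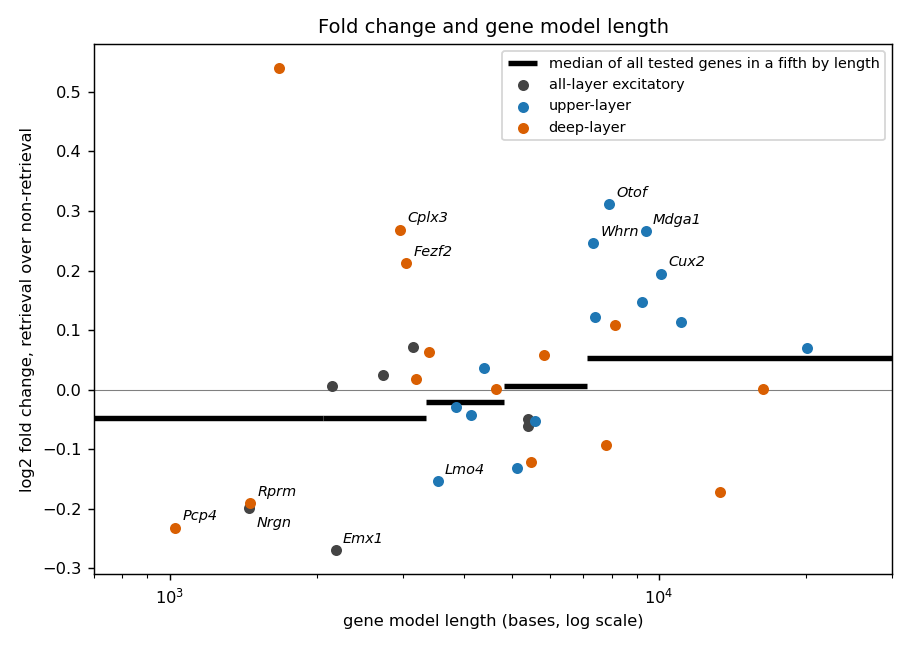
Log2 fold change, retrieval over non-retrieval (vertical axis), against gene model length in bases (horizontal axis, log scale) for the 35 markers, coloured by class, with black bars for the median of all tested genes in each of 5 length groups. Genes with an unadjusted p under 0.05 are named, and 4 of the 6 higher ones lie in the longest group, as do 12 of all 35 markers.

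Further genes of the same neurons were read from lists of other excitatory, upper-layer and deep-layer genes. None of 7 other excitatory genes passed in edgeR (median log2 fold change 0.02), with none at an unadjusted p under 0.05, and Camk2a, the calcium/calmodulin kinase of excitatory neurons, had a log2 fold change of 0.076. None of 7 other upper-layer genes passed (median 0.03), with 1, Wfs1, at an unadjusted p under 0.05. Of 12 other deep-layer genes 3 rose, against 3.67% of all genes tested, and 9 did not pass (median 0.12). These were Nr4a2, Ctgf and Bcl6. Nr4a2, a nuclear receptor gene that marks the deepest cortical neurons and the claustrum and is also induced by activity, stood at 8.63, 11.2, 9.02 and 9.18 CPM in non-retrieval libraries 1 to 4 and 28.5, 28.5, 27.2 and 34.5 CPM in retrieval libraries 1 to 4. All retrieval values lay above all non-retrieval values (log2 fold change 1.65 with SE 0.10, adjusted p = 3.52e-08 in edgeR). Ctgf, a matricellular gene of the deepest cortical neurons, stood at 20.0, 21.6, 22.8 and 16.5 CPM in non-retrieval libraries 1 to 4 and 33.2, 41.9, 21.2 and 31.7 CPM in retrieval libraries 1 to 4. Retrieval library 3 lay within the non-retrieval range and the other 3 above it (log2 fold change 0.66 with SE 0.15, adjusted p = 0.0193 in edgeR). Bcl6, a transcriptional repressor, stood at 21.5, 23.1, 21.3 and 21.6 CPM in non-retrieval libraries 1 to 4 and 25.7, 29.5, 27.5 and 25.7 CPM in retrieval libraries 1 to 4, with no overlap between the groups (log2 fold change 0.31 with SE 0.08, adjusted p = 0.0299 in edgeR). Moxd1, another marker of the deepest neurons, did not pass (log2 fold change 0.13, edgeR adjusted p = 0.651).

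The 8 libraries held 25013503 to 29547978 counts each, and 766 of 16745 genes were called, 615 higher and 151 lower in retrieval. With the offset for length and GC content the calls were 765 higher and 572 lower. Without retrieval library 1 there were 1360 calls, among them 4 of the 35 markers, and 330 to 618 with any other library left out, among them 0 or 1. Without retrieval library 2, the one high in striatal markers, none of the 35 markers passed, and the medians were 0.11 for the upper-layer and -0.020 for the deep-layer genes. Bcl11b, Foxp2, Pcp4, Crym, Lmo4, Tle4, Rprm and Lmo3 are expressed by striatal neurons as well, and without them the medians were 0.12 and 0.039. Among markers of other cell types, 6 of 10 myelin genes rose, against 3.67% of all genes tested. So did Zbtb20, 1 of 6 hippocampal markers (log2 fold change 0.67, edgeR adjusted p = 0.00235). All 5 hippocampal markers tested had a positive log2 fold change (median 0.33), but 4 did not pass, and Dsp was too low to be tested. Pvalb, 1 of 8 GABAergic interneuron markers, fell (log2 fold change -0.41, edgeR adjusted p = 0.0355), as did 0.902% of all genes. The other 7 GABAergic markers did not pass, and over the 8 the median log2 fold change was 0.03 with 4 positive and 4 negative. None of 8 astrocyte and 6 microglia markers passed.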

How the data were processed

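Per the labels, the RNeasy Micro kit served for extraction and the NEBNext Ultra RNA kit for the libraries. The authors deposited a table of unnormalized read counts with the length of each gene model. Alignment to GRCm38 with HISAT2 2.0.5 and counting with featureCounts 1.5.0-p3 are named in the submitters' processing notes. Neither the annotation release nor the strand setting is given there, so reads of overlapping and antisense genes cannot be told apart. Of the 35 markers, 13 overlap another gene with counts, and only for Neurod1 did that gene hold over 10% as many reads.

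Genes were filtered with filterByExpr, scaled with TMM factors and compared with edgeR 4.0.16 in R 4.3.3 (quasi-likelihood F test, two-sided, Benjamini-Hochberg over 16745 genes, called at an adjusted p under 0.05). Alternatives used DESeq2 1.42.0 and limma 3.58.1, other scaling factors and filters, covariates, and a loess offset (span 0.5) for length and GC content. GC content came from the longest GENCODE transcript and was known for 99.9% of genes. Class means used log2 of CPM + 0.5. RPKM used the deposited gene length. Intervals are 95% t intervals from the edgeR fit.

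The members, classes and lists were chosen with earlier results of these data known. Values in every library are given for the 3 genes of each class with the smallest p and for Slc17a7, Cux2, Rorb, Fezf2, Bcl11b, Tbr1 and Foxp2. Mdga1, Whrn, Etv1, Nxph4 and Cplx3 were described further after their values were seen. Replicates are pools of mice, so p-values measure the spread between pools. In a simulation on 16543 genes the edgeR comparison found 16% of those shifted by 0.3 (log2), 64% at 0.5, 85.4% at 1 and 100% at 2. It shifted only 48 to 50 genes of each size, drawn at random and not matched to the markers in level. Fewer genes were shifted than the 766 called here, which makes the adjusted threshold stricter. These shares are therefore not the power for the 35 markers. Pairs of libraries within a group differed by more than sampling noise (chi-square per degree of freedom 6.19 to 24.9).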

Additional observations from a re-analysis of the deposited data

Results flagged for a closer look

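In a group of 4, 1 library can lie far from the other 3. This was looked for in 82 groups of values, and chance alone gives about 1 in 20. Emx1 in retrieval library 1 was at 16.76 CPM, against 20.0 to 20.6 CPM in the other 3 retrieval libraries. Bcl11b in non-retrieval library 4 was at 86.63 CPM, against 96.3 to 97.0 CPM in the other 3 non-retrieval libraries. The mean log2 CPM of the striatal projection neuron markers in retrieval library 2 was 4.42, against 3.42 to 3.51 in the other 3 retrieval libraries.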

How the results depend on the processing

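Of the 35 markers, 0 were called in edgeR, and also with other scaling factors, with a mean CPM of at least 1, with DESeq2 and with the striatal covariate. The count was 2 with no low-count filter, 3 with limma-voom, 1 with the length and GC offset, 1 with the myelin covariate (Rasgrf2) and 1 at an adjusted p under 0.10. With 1 library left out it was 0 to 4, with the 4 (Otof, Mdga1, Whrn, Etv1) without retrieval library 1 and 1 (Nxph4) without retrieval library 3. Over all genes the count was 1139 of 31030 with no low-count filter and 1619 of 16745 with limma-voom. It was 1337 with the offset, 169 with the myelin covariate and 1173 at an adjusted p under 0.10. With 1 library left out it was 330 to 1360 (331 without non-retrieval library 3, 330 without non-retrieval library 4, 1360, 420 and 397 without retrieval libraries 1, 3 and 4).

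The replicate numbers share no stated litter or day, so they were not taken as pairs in the main fit. Deviations of same-numbered libraries correlated at 0.31, 0.11, 0.035 and 0.13, and each library correlated best with its own number. Whether the numbers mark pairs was not tested, and the count of called markers depends on it. With the replicate number as a block 1791 genes and 9 of the 35 markers were called, 5 higher (Otof, Cux2, Mdga1, Whrn, Fezf2) and 4 lower (Nrgn, Emx1, Lmo4, Rprm). Under the block Scnn1a stood at 2.9e-05 and Foxp2 at -0.0041.

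The median of the all-layer genes was -0.0058 with the myelin covariate, 0.026 with the striatal covariate, and -0.072 to 0.036 with 1 library left out. The upper-layer median was 0.024 with the offset and otherwise 0.046 to 0.13. The deep-layer median was -0.070 to 0.094 over all settings.

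Some log2 fold changes changed sign, most of them near 0 but also those of Nxph4, Cplx3, Whrn and Etv1 with the myelin covariate, and the cause was not tested. With total-count scaling Neurod6 stood at -0.0036, Foxp2 at -0.0085 and Tle4 at -0.0079. With the offset Cux1 stood at -0.11, Lhx2 at -0.013 and Foxp2 at -0.095. With limma-voom Neurod1 stood at -0.0035, Neurod6 at -0.060, Scnn1a at 0.25, Foxp2 at -0.11, Tle4 at -0.068, Tshz2 at 0.051, Syt6 at -0.053 and Hs3st4 at -0.021. With the striatal covariate Slc17a6 stood at 0.078, Foxp2 at -0.017, Tle4 at -0.057, Syt6 at -0.076 and Hs3st4 at -0.024. With the myelin covariate Slc17a6 stood at 0.098, Neurod2 at -0.0058, Lhx2 at -0.0061, Pou3f2 at 0.14, Lmo3 at 0.0070, Whrn at -0.077, Tle4 at -0.064, Crym at -0.037, Etv1 at 0.089, Nxph4 at -0.53, Cplx3 at -0.12, Syt6 at -0.075 and Hs3st4 at -0.053. With 1 library left out the ranges were -0.25 to 0.061 for Slc17a6, -0.11 to 0.015 for Pou3f2, -0.052 to 0.077 for Tle4, -0.040 to 0.085 for Hs3st4, -0.065 to 0.14 for Neurod1, -0.29 to 0.27 for Scnn1a, -0.22 to 0.11 for Tshz2, -0.058 to 0.047 for Neurod6, -0.064 to 0.084 for Foxp2, -0.038 to 0.15 for Syt6, -0.0058 to 0.12 for Cux1 and -0.017 to 0.085 for Lhx2.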
